A study of Mus musculus with 8 samples.

Results

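The introns described here are those that stayed partly unspliced in every one of the 8 RNA libraries of a study of mouse monocyte development. They were chosen by the authors' intron tables: an intron had to be listed in all 8 tables and marked clean in each, be over 100 and under 20000 bases long, have at least 10 spliced reads at 1 of its ends in every library, and have a retention ratio of at least 0.1 in every library. The retention ratio is the read depth over the intron divided by the sum of that depth and the spliced reads, so it runs between 0 for full splicing and 1 for none. 603 introns in 436 genes met the rule, of 67815 introns in 7548 genes that met every condition except the ratio, which is 0.889% of those introns and 5.78% of those genes. The tables shared 204362 introns, of which 166494 were marked clean in all of them. Because the ratios chose the introns, their height is a description and was not tested.

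The libraries were made from polyadenylated RNA of mouse bone marrow cells, by the source names, although the cell type tag reads monocytic cell line. MDP (1 library) and cMoP (2) are successive monocyte precursors, Ly6Chi (2) and Ly6Clo (1) are monocytes high or low in the surface protein Ly6C, and Upf2KO_Ly6Chi (2), called the knockout below, are Ly6Chi monocytes labelled as lacking Upf2. The cMoP and control Ly6Chi libraries are marked FL_FL, taken here as the floxed allele without its deletion, which the labels do not state. The labels of MDP and Ly6Clo carry no genotype mark. In comparisons with them, stage and a possible difference of genotype cannot be told apart. The sources used here give no strain, age or Cre line, nor whether replicates came from separate animals, so every p-value measures the spread between these libraries, which may be technical.

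An intron that is left in a polyadenylated transcript can meet several fates. Many such transcripts are held in the nucleus, where the intron may be spliced later, and these are known as detained introns. If the transcript is exported, translation usually runs into a stop codon inside the intron, and nonsense-mediated decay (NMD), for which Upf2 is a core factor, then degrades it. Retained introns are known to be short and rich in G and C, and genes of the splicing machinery are known for them. Intron retention has been described as a layer of control in granulocytes and other blood cells.

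Several features of whole libraries bear on the values below. Over the introns common to the tables the libraries held between 28726135 and 37591021 spliced reads, and between 6.05 (cMoP replicate 2) and 11.5 (Ly6Clo) boundary reads per 100 spliced reads. cMoP replicate 2 stood apart, with 797 of the 67815 introns at a ratio of at least 0.1, against 1836 to 5184 in the other 7 libraries. Spliced reads were denser at the 3′ end of genes, by a median log2 ratio of last to first intron of 1.15 in cMoP replicate 2, 0.86 in cMoP replicate 1, 1.10 and 0.82 in knockout cells and 0.55 to 0.64 in the other 4 libraries. Upf2 itself was at 20.4 and 22.5 TPM in knockout cells, against 20.2 and 18.2 TPM in Ly6Chi controls, and 10 and 13 reads joined its exons 2 and 3 in knockout cells, against 41 and 45 in Ly6Chi controls. The same junction had 59 reads in MDP, 38 and 16 in cMoP and 39 in Ly6Clo, and cMoP replicate 2, with the strongest 3′ lean, was thus also low. The summed TPM of 7 cMoP markers was 28811 and 25844 in cMoP and at most 6002 elsewhere. That of 8 Ly6Clo markers was 5042 in Ly6Clo and at most 772 elsewhere. That of 7 Ly6Chi markers was highest in Ly6Chi controls (46163 and 48072), against 28815 and 29363 in knockout cells. It was 22793 in Ly6Clo and 1314 to 6818 in MDP and cMoP. The part of the lower sum of knockout cells in their comparison with the controls was not tested. The 5 MDP markers did not single out MDP (914 TPM there and 2248 TPM in Ly6Clo). Markers of neutrophils summed to 4989 TPM in Ly6Clo and 293 to 2283 TPM elsewhere, with none of the 9 at 0 in any library. Those of dendritic cells summed to 365 TPM in Ly6Clo and 0.57 to 53 TPM elsewhere, with 1 of the 6 at 0 in cMoP replicate 2 and none at 0 in the other 7 libraries. Those of erythroid cells summed to 217 TPM in Ly6Clo and 2.98 to 127 TPM elsewhere, with none of the 6 at 0. Those of B cells summed to 748 TPM in Ly6Clo, 676 TPM in MDP and 265 to 523 TPM elsewhere, with none of the 7 at 0. The part of any of these cells in the Ly6Clo or MDP values was not tested.

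No genome sequence was at hand, so the sequence of an intron was read from a GENCODE M21 transcript (mm10) in which it is exonic, which was possible for 199 of the 603 introns. Those shown first come from the introns with the highest or the steadiest ratios. They are an intron of Chkb (chr15:89428545-89428713, minus strand, 169 bases, intron 3 of 10) and an intron of Dpm2 (chr2:32570913-32571205, plus strand, 293 bases, intron 1 of 3). They are written 5′ to 3′ in the direction of the gene, with the pair of bases at each end and the first stop codon in the reading frame of the exon before it in capitals.
Chkb: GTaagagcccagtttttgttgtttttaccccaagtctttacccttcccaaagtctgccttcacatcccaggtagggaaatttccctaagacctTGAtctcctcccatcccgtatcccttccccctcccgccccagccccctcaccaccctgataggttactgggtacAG
Dpm2: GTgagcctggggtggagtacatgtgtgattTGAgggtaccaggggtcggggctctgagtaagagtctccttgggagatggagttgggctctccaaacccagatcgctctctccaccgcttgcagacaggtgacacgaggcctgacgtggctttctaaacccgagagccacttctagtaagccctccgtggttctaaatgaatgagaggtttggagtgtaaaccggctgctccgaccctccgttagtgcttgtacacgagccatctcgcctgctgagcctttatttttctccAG
In Chkb the stop codon TGA starts at base 94 of the intron and in Dpm2 at base 31.

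A second set, picked once the values were known, shows how the introns differ in their ends and in their reading frame. The intron of Lmf2 (chr15:89354456-89354563, minus strand, 108 bases) starts with GC in place of GT. Introns of 9930104L06Rik (chr4:124942472-124942582, plus strand, 111 bases, 37 codons) and Dus3l (chr17:56768629-56768805, plus strand, 177 bases, 59 codons) hold no stop codon in frame and are a multiple of 3 bases long, so that the frame runs on into the next exon. The intron of Csf2ra (chr19:61226056-61226214, minus strand, 159 bases) is 1 of 5 of that gene among the 603.
Lmf2: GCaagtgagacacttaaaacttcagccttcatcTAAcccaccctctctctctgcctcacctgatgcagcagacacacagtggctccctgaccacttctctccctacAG
9930104L06Rik: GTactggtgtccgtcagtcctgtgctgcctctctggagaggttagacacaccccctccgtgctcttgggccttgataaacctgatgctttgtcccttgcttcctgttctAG
Dus3l: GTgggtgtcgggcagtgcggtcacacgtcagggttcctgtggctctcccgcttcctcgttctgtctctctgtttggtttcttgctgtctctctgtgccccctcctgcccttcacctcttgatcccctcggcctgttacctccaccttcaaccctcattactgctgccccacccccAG
Csf2ra: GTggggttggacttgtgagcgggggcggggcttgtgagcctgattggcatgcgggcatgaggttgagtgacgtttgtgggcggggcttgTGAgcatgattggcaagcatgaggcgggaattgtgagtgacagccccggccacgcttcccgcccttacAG
From longer introns the first 30 and the last 30 bases are given, for Ogt (chrX:101652209-101653975, plus strand), whose ratio varied most, and for Prim1 (chr10:128022973-128023579, plus strand), which starts with AT and ends with AT.
Ogt start: GTaggtgtttgctagaacacatttaagcat
Ogt end: ttggtttttcaccattgatattgtatttAG
Prim1 start: ATatcctttcctgcggttactatgtaagcc
Prim1 end: cccaagtgaccatgctccttaatgaagcAT
The Prim1 start matches ATATCCTT, the letters that introns of the minor (U12) spliceosome commonly start with.

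The ratios of the 603 introns, which had to reach 0.1 in every library, were lowest in cMoP replicate 2 and highest in Ly6Clo by their medians. The median ratio reached 0.291 in MDP, 0.258 and 0.153 in cMoP, 0.223 and 0.251 in knockout cells, 0.294 and 0.285 in Ly6Chi controls and 0.335 in Ly6Clo. Over the other 67212 measured introns it reached 0.00758 in MDP, 0.00645 and 0.00222 in cMoP, 0.00366 and 0.00384 in knockout cells, 0.00649 and 0.00658 in Ly6Chi controls and 0.00731 in Ly6Clo. In both sets cMoP replicate 2 was lowest and the knockout libraries were next, and Ly6Clo was highest in the 603 and MDP in the others. Ly6Clo was the highest library for 280 of the 603 introns (46.4%), and for 29.4% of the other measured introns. cMoP replicate 2 was the lowest for 453 (75.1%), and for 52.2% of the others. Libraries that tied, as at a ratio of 0, were counted for the first in order, MDP before cMoP. The share of 52.2% may thus be too low. The introns took 7.05% of the boundary reads of the measured set in Ly6Clo, 2.99% in cMoP replicate 2 and 4.30% to 6.37% in the other 6 libraries.

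**Figure D1:**
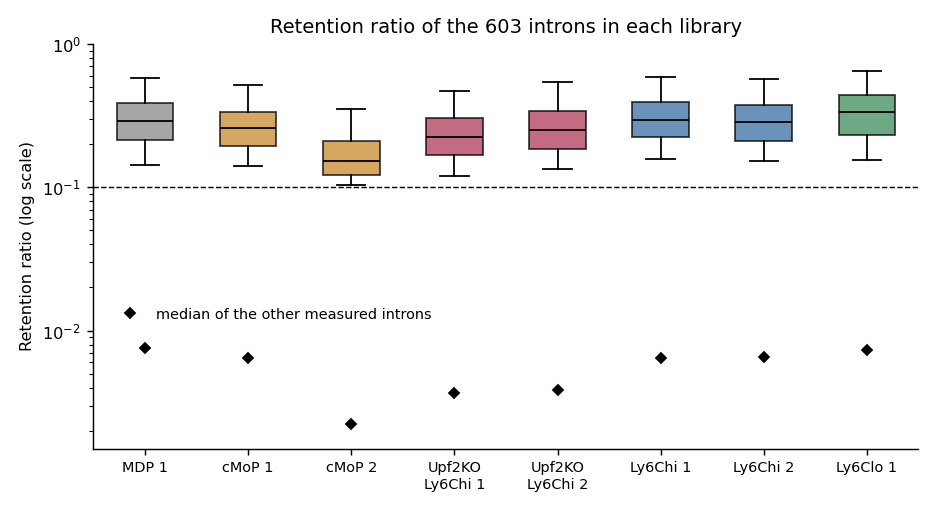
Retention ratio (log axis) of the 603 introns in each library. Boxes span the quartiles with the median as a line, whiskers the 5th to 95th percentile, diamonds are the medians of the other 67212 measured introns, and the dashed line is the floor of 0.1 that chose the introns. cMoP replicate 2 has the lowest box (median 0.153) and Ly6Clo the highest (0.335).

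Most introns were retained in a minority of the RNA. Their mean ratio over the 8 libraries had a median of 0.261, with quartiles of 0.208 and 0.339. 32 introns had a mean ratio of at least 0.5, and 4 of them were at or above 0.5 in every library. The highest mean, 0.767, belonged to an intron in the 3′ untranslated region of Tbrg4 (chr11:6615767-6616557), a gene for a mitochondrial RNA-binding protein. Its ratio reached 0.772 in MDP, 0.794 and 0.770 in cMoP, 0.691 and 0.765 in knockout cells, 0.829 and 0.817 in Ly6Chi controls and 0.697 in Ly6Clo. Tbrg4 RNA itself fell to 29.7 and 33.2 TPM in Ly6Chi, against 92.7 and 104.7 TPM in cMoP.

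The Chkb intron printed above, in the gene of choline kinase beta, had ratios of 0.696 in MDP, 0.605 and 0.353 in cMoP, 0.633 and 0.610 in knockout cells, 0.636 and 0.702 in Ly6Chi controls and 0.734 in Ly6Clo. Naip5 encodes a cytosolic sensor of bacterial flagellin, and its intron 4 (chr13:100230785-100233339, coding) had ratios of 0.795 in MDP, 0.648 and 0.479 in cMoP, 0.496 and 0.573 in knockout cells, 0.688 and 0.628 in Ly6Chi controls and 0.764 in Ly6Clo. Here both knockout libraries were below both Ly6Chi control libraries, as they were by the median of the whole set. Naip5 has near-identical copies in the genome, so its reads may be shared between them. Among the 10 highest were also introns of Zc3h7a (mean 0.717), Trim39 (0.687 and 0.671, a pair that overlaps), Hmbox1 (0.666), Suv420h2 (0.626) and Sh2b1 (0.621).

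The reads over the introns came from both ends in most cases. The less covered boundary had a median of 0.704 of the reads of the more covered one, summed over libraries, against 0.359 in the other measured introns. In 460 of the 603 that share was at least 0.5, and in 58 (9.62%) it was under 0.25, against 38.7% of the others. The larger Trim39 intron (a share of 0.0201), that of Klc1 (0.0146) and that of Rbm3 (0.0524) are examples of reads from nearly 1 end alone. When the ratio was formed from boundary reads in place of depth, 495 of the 603 (82.1%) stayed at or above 0.1 in every library, and 1178 of the 67212 others (1.75%) did so. As a measure of even depth along the introns, the lower quartile of depth was 0.666 of the upper quartile at the median, against 0.284 in the others. The rule chose the introns by depth, and the others hold little depth and few boundary reads. These contrasts with the others are thus tied to the rule and were not tested. The tables' own warnings were frequent, with 52 of the 603 (8.62%) free of them in every library against 16.1% of the others. Counting each intron once per library, 1518 pairs of intron and library carried a warning of uneven intron cover, 1025 one of a minor isoform and 1730 none. 100 of the introns overlap another of the 603 and share reads with it.

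Length, place and annotation of the introns can be set beside those of the rest. The introns had a median length of 643 bases, against 1498 in the others, and 254 (42.1%) were under 500 bases, against 20.1%. GENCODE M21 already annotates a retained-intron transcript across 194 of them (32.2%), against 3.73% of the others. Of the 596 that match an annotated intron, 490 (82.2%) lay between coding exons, against 90.5% of the others, 51 (8.56%) in a 5′ untranslated region against 4.75%, and 10 (1.68%) in a 3′ untranslated region against 0.460%. The first intron of a transcript made up 16.1% of them against 10.2% of the others, and the last intron 17.1% against 9.61%. Another annotated exon overlapped a part of 170 of them (28.2%), against 16.5%. These shares were not tested, since introns of 1 gene are not independent.

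**Figure D2:**
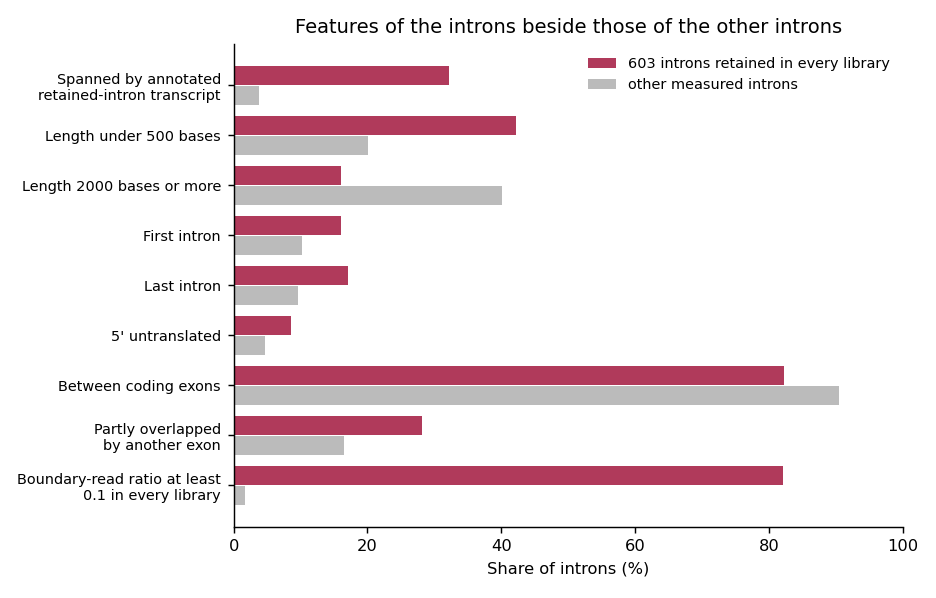
Share (%) of introns with each feature, for the 603 introns retained in every library (upper bars) and the other measured introns (lower bars). An annotated retained-intron transcript spans 32.2% of the retained introns against 3.73% of the others, and 42.1% against 20.1% are under 500 bases.

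Sequence could be compared for the 199 introns read and for 2576 of the others, both of them sets that a transcript annotated as unspliced happens to span. The GC content of the 199 had a median of 53.3%, against 46.7%. GC in place of GT at the start, with AG at the end, occurred in 7 of 199 (3.52%), against 23 of 2576 (0.893%), in Snrnp48, Mettl17, Lmf2, Spice1, Fgd2, Slk and Man2a2. Fgd2 encodes an exchange factor for the GTPase Cdc42, and its GC-AG intron had the highest mean ratio of the 7, 0.479. Snrnp48 encodes a protein of the minor spliceosome, and its intron had a mean ratio of 0.281. Ends other than GT-AG and GC-AG occurred in 3 introns, of Prim1, 9930104L06Rik and H2-Q7. The start ATATCCTT or GTATCCTT, read on the strand of the gene, occurred in 2 of 199 (1.01%) against 18 of 2576 (0.699%), and the start GTAAGT in 21 (10.6%) against 11.9%. A score of the first 6 intron bases, the summed log2 of each base's frequency at its position over 0.25, had a median of 5.96 against 6.81. The same score of the last 15 bases had a median of 7.76 against 8.25. A stop codon in frame was found in 160 of the 175 coding introns with a sequence (91.4%), against 2258 of 2336 (96.7%), and started at base 44 at the median. In 6 of the 175 (3.43%), against 0.899%, there was no stop and the length was a multiple of 3.

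Some genes kept several introns. 113 of the 436 genes held 280 of the introns, and 43 pairs of the introns were neighbours in a transcript. The counts per gene include introns that overlap each other and share reads, as in Nfkbid. Nfkbid, which encodes an atypical inhibitor of NF-kappaB of the nucleus, led with 7 of its 10 measured introns. Their mean ratios ran between 0.169 and 0.415, highest in an intron of 241 bases (chr7:30427185-30427425). Csf2ra, the alpha chain of the GM-CSF receptor, held 5 of 9, with mean ratios of 0.215 to 0.363, in a stretch of short introns that includes the one printed above. Csf2ra stood at 41 TPM in MDP, 140 and 76 TPM in cMoP, 317 and 377 TPM in knockout cells, 391 and 419 TPM in Ly6Chi controls and 484 TPM in Ly6Clo. The intron printed had ratios of 0.471 in MDP, 0.317 and 0.191 in cMoP, 0.354 and 0.322 in knockout cells, 0.336 and 0.330 in Ly6Chi controls and 0.503 in Ly6Clo. The ratios of this intron lay between 0.191 in cMoP replicate 2 and 0.503 in Ly6Clo, and the host RNA was lowest in MDP.

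Klhl17 (5 of 8), Rgl2 (5 of 7, an effector of Ras-like GTPases) and Taz (5 of 11, the tafazzin gene of cardiolipin metabolism) came next. Lilrb4a, an inhibitory receptor of myeloid cells, held 4 of 4, with mean ratios of 0.407 to 0.465, and has a close copy in the genome with which it may share reads. Dus3l, a tRNA dihydrouridine synthase, held 4 of 9. The printed Dus3l intron with the open frame had ratios of 0.511 in MDP, 0.352 and 0.227 in cMoP, 0.436 and 0.450 in knockout cells, 0.492 and 0.505 in Ly6Chi controls and 0.649 in Ly6Clo. Nsmf (4 of 20) and Sh2b1 (4 of 12, an adaptor protein of receptor signalling) complete the genes with 4 or more. A further 29 genes tied at 3, of which 9930104L06Rik (3 of 3) comes first by name. In 14 of the 436 genes every measured intron met the rule. Introns of the set also overlap each other in Rgl2, Taz, Lilrb4a, Nsmf, Sh2b1 and 9930104L06Rik. The counts of these genes thus exceed their number of separate retained stretches.

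Genes of splicing regulators were among the hosts, in lists chosen with earlier results of these data known. Genes known for detained or retained introns held 18 of their 278 measured introns in the set (6.47%), against 0.889% of all measured introns, in 12 genes. SR proteins, which bind exonic enhancers, and their kinases held 11 of 266 (4.14%) in 8 genes, among them Srsf10, Srsf7, Tra2a, Srpk1 and the kinases Clk2, Clk3 and Clk4. The lists share genes, and the first was written from the literature for this property. An intron of Clk2 (chr3:89169703-89170048, coding) had ratios of 0.435 in MDP, 0.351 and 0.218 in cMoP, 0.422 and 0.349 in knockout cells, 0.408 and 0.392 in Ly6Chi controls and 0.348 in Ly6Clo. The intron of Srsf7 (chr17:80204388-80205261) ranged more widely, with 0.329 in MDP, 0.290 and 0.119 in cMoP, 0.240 and 0.271 in knockout cells, 0.356 and 0.332 in Ly6Chi controls and 0.572 in Ly6Clo. In Srsf7 Ly6Clo was highest, whereas in Clk2 it was MDP, and cMoP replicate 2 was lowest in both.

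Other lists stood near or under the background of 0.889%. Innate immune and monocyte genes held 11 of 809 (1.36%), in Naip5, Lilrb4a, Stat2, Nlrc5, Nr4a1, Nfkbiz, Il17ra and Irf9. The list of NMD factors and the exon junction complex held 3 of 375 (0.800%): an intron of Smg5 with a mean ratio of 0.258, of Pym1 with 0.261 and of Thoc1 with 0.366. DNA repair and checkpoint genes held 5 of 614 (0.814%), chromatin modifiers 9 of 1546 (0.582%), including Hdac10, Tet2 and Setdb1, and hnRNP and other RNA-binding proteins 3 of 603 (0.498%), in Rbm3, Ewsr1 and Ddx39b. snoRNA host genes held 1 of 202 (0.495%), tRNA synthetases and tRNA enzymes 3 of 616 (0.487%) and the core spliceosome 1 of 533 (0.188%). None of 524 introns in genes of the nuclear envelope and pore met the rule.

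**Figure D3:**
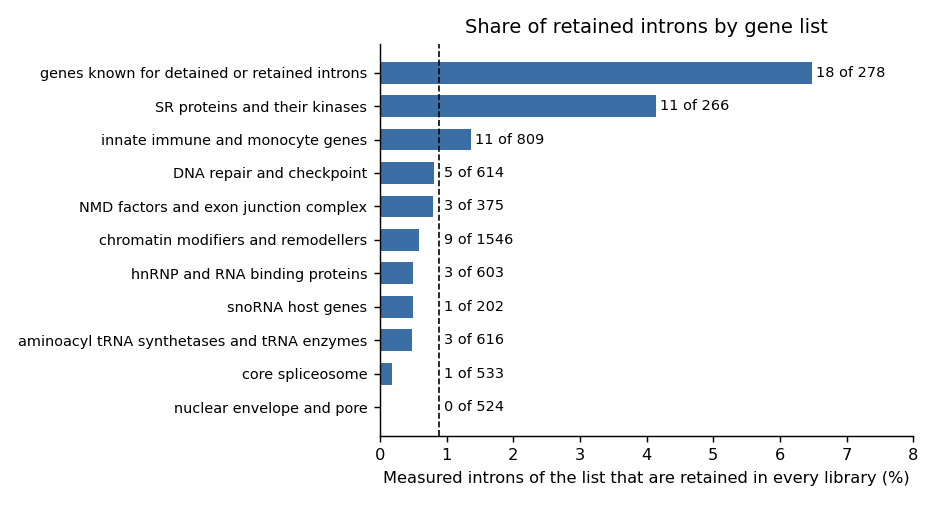
Share (%) of each list's measured introns that are retained in every library, with counts. The dashed line marks 0.889%, the share over all measured introns. Genes known for detained or retained introns (6.47%) and SR proteins with their kinases (4.14%) lie above it by the most.

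The introns varied in how far their ratios moved between libraries. The SD of the 8 logit ratios (the natural log of ratio over 1 minus ratio) had a median of 0.390. The odds of retention differed by 3.29-fold at the median between an intron's highest and lowest library, by under 2-fold in 55 introns and by over 10-fold in 10. The steadiest, in the 5′ untranslated region of Htatip2 (chr7:49759312-49759541), stayed within 0.167 to 0.211. The Dpm2 intron printed above, in a gene of dolichol phosphate mannose synthesis, stayed within 0.201 to 0.258. Introns of Atxn7l3 (0.158 to 0.222), Slc25a37 (0.165 to 0.230), which encodes the iron importer mitoferrin, and Leng8 (0.226 to 0.325) were the next steadiest. Boundary reads were uneven in Dpm2 (a share of 0.198) and Atxn7l3 (0.0556).

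Ogt varied most. It encodes the enzyme that adds N-acetylglucosamine to nuclear and cytosolic proteins, and its intron 4 is a known detained intron that responds to that modification. The whole intron (chrX:101652209-101655623, 3415 bases) had ratios of 0.544 in MDP, 0.446 and 0.133 in cMoP, 0.505 and 0.546 in knockout cells, 0.797 and 0.780 in Ly6Chi controls and 0.859 in Ly6Clo. Both control Ly6Chi libraries were above both cMoP libraries and above both knockout libraries, with no overlap. The same held for the median ratios of the whole set. A shorter intron of an alternative transcript has the same start and shares its reads, with 0.106 in cMoP replicate 2 and 0.854 in Ly6Clo as its extremes. Reads over the left boundary numbered 21 and 90 in knockout cells, with 45 and 81 or 82 spliced reads, against 313 and 233 in Ly6Chi controls with 79 and 75 spliced reads. Ogt RNA stood at 106 TPM in MDP, 50.4 and 20.6 TPM in cMoP, 49.9 and 79.6 TPM in knockout cells, 162 and 130 TPM in Ly6Chi controls and 216 TPM in Ly6Clo. Its level and its ratio thus stood in nearly the same order across the libraries.

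Klc1, Tatdn3 and Paxbp1 held the other most variable introns. Tatdn3 (chr1:191049363-191054855) had ratios of 0.441 in MDP, 0.317 and 0.116 in cMoP, 0.227 and 0.286 in knockout cells, 0.660 and 0.443 in Ly6Chi controls and 0.559 in Ly6Clo. As in Ogt, the knockout libraries were below the Ly6Chi controls and cMoP replicate 2 was the lowest. The whole set had this order too, with median ratios of 0.223 and 0.251 in knockout cells, against 0.294 and 0.285 in Ly6Chi controls. The other measured introns had 0.00366 and 0.00384 in knockout cells, against 0.00649 and 0.00658 in Ly6Chi controls. The order is thus not particular to these genes, and how many single introns show it was not counted. The Paxbp1 intron (chr16:91031590-91034097) ran between 0.108 in cMoP replicate 2 and 0.588 in Ly6Clo, and the Klc1 intron (chr12:111789460-111794336) between 0.109 in cMoP replicate 2 and 0.607 in Ly6Clo.

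**Figure D4:**
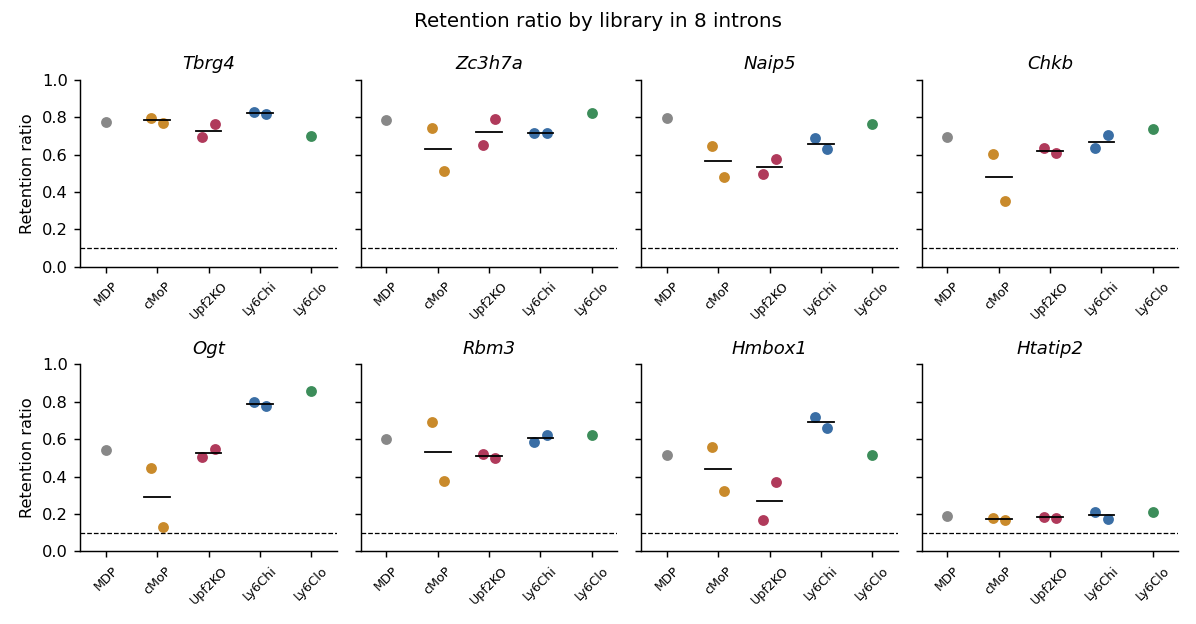
Retention ratio in each library (points, coloured by group) for 1 intron of each of 8 genes, with the mean of replicated groups as a line and the floor of 0.1 dashed. Ogt runs between 0.133 in cMoP replicate 2 and 0.859 in Ly6Clo, while Htatip2 stays between 0.167 and 0.211.

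Whether retention changed between stages or with the loss of Upf2 was tested over 48132 introns, 564 of them among the 603, as the change of boundary reads relative to spliced reads with edgeR's quasi-likelihood test. The floor of 0.1 in every library limits the change an intron of the set can show. None of the 564 passed an adjusted p of 0.05 in any of the 4 comparisons. The background was 0% of all introns for cMoP against MDP, 0.0145% for Ly6Chi against cMoP, 0% for Ly6Clo against Ly6Chi and 0.00208% for the knockout against Ly6Chi controls. Unadjusted p-values were under 0.05 for 57, 96, 33 and 26 of the 564 in that order of comparisons. Over all 48132 introns tested they were under 0.05 for 4020, 5234, 2391 and 3342. DESeq2 called 2 of the 197 to which it gave an adjusted p in Ly6Chi against cMoP and none in the other comparisons, and limma on intron depth called none.

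The changes had the same direction as over all introns tested. The median log2 change of the 564 was −0.53 in cMoP against MDP, where the median of all introns tested was −0.39. It was 0.58 in Ly6Chi against cMoP (all introns 0.38), 0.24 in Ly6Clo against Ly6Chi (0.11) and −0.31 in knockout cells against Ly6Chi controls (−0.32). Of the 564, 92 lay above 0 in cMoP against MDP, 502 in Ly6Chi against cMoP, 385 in Ly6Clo against Ly6Chi and 136 in knockout cells against Ly6Chi controls. How many of all introns tested lay above 0 was not counted, so these counts have no background beyond the medians. The 3′ lean of the spliced reads moves with these medians, being larger in both cMoP and both knockout libraries than in the libraries they are compared with, and its part was not tested. Without cMoP replicate 1, edgeR called 4 higher and 114 lower of the 564 in cMoP against MDP, where 0.291% of all introns were higher and 9.98% lower, and 183 higher and 4 lower in Ly6Chi against cMoP, where 14.1% of all were higher and 0.374% lower. Without cMoP replicate 2, none was called in cMoP against MDP, and 2 were higher and 0 lower in Ly6Chi against cMoP. Without cMoP replicate 1, 1 higher and 10 lower of the 564 were called in knockout cells against Ly6Chi controls, where 56 higher and 408 lower were called of all 48132, and 7 higher and 4 lower in Ly6Clo against Ly6Chi, where 164 and 44 were called of all. Without cMoP replicate 2 the median log2 change of the 564 was −0.30 in knockout cells (all introns −0.32) and 0.24 in Ly6Clo (0.11).

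Once the overall shift was removed by scaling boundary and spliced reads apart (TMM), 6 introns of the set passed. They are named although the rule for names did not cover this fit. For Ly6Chi against cMoP, where 0.409% of all introns passed, both Ogt introns were higher, the longer by 2.76 on the log2 scale (edgeR, adjusted p = 2.27e-05). Without scaling its change was 3.19 ± 0.51 (SE) with an adjusted p of 0.238, and it passed in 6 of the 15 settings tried. A Tacc1 intron was lower in the same comparison (log2 −1.89, adjusted p = 0.0406, edgeR), but its boundary reads came nearly from 1 end alone (a share of 0.0450). In cMoP against MDP (0.0187% of all introns) an Rbm3 intron was higher by 2.77 (adjusted p = 0.0379), while its ratios of 0.690 and 0.374 in cMoP lay on both sides of 0.604 in MDP. In Ly6Clo against Ly6Chi (0.0623%) a Ptp4a1 intron was lower by log2 −2.38 (adjusted p = 0.0389), with a ratio of 0.115 in Ly6Clo against 0.295 and 0.261 in Ly6Chi. That comparison rests on 1 Ly6Clo library.

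In the knockout against Ly6Chi controls (0.129% of all introns with scaling) 1 intron of the set passed. It lies in Hmbox1 (chr14:64817137-64822053), which encodes a homeobox protein that binds telomeres. Its ratio was 0.167 and 0.370 in knockout cells, against 0.720 and 0.659 in Ly6Chi controls, and its scaled log2 change was −2.0 (edgeR, adjusted p = 0.0396; unscaled −2.36 ± 0.57, adjusted p = 0.716). The groups do not overlap, an order that the median ratios of the whole set share, but the intron passed in 5 of the 13 settings tried. A longer Hmbox1 intron of the set (chr14:64817137-64825600) shares 1 end and reads with it. Its scaled log2 change in knockout cells was −0.30 (edgeR, adjusted p = 0.899). The neighbouring Hmbox1 intron in the 3′ untranslated region had 0.629 and 0.662 in knockout cells against 0.746 and 0.747 in Ly6Chi controls. For Ogt the scaled change in knockout cells was −1.16 with an adjusted p of 0.249.

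NMD acts on transcripts with a stop codon inside a retained intron, so the knockout was also described by that feature. In the 153 tested introns with a stop codon in frame the median log2 change in knockout cells against Ly6Chi controls was −0.30, with 35 above 0. In the 14 without one it was −0.27, with 5 above 0. Introns of 5′ untranslated regions had a median of −0.44 (46 introns) and those between coding exons −0.29 (457 introns). In 3′ untranslated regions the median was −0.47, with 0 of 10 introns above 0, and in transcripts without coding sequence it was −0.39 (44 introns, 9 above 0). The median of all introns tested was −0.32, and these groups were not tested against each other.

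The level of the host genes is a measure that the rule did not use, apart from the need for spliced reads. It was compared with limma on log2(TPM + 1), a scale that understates changes of low genes, over 13126 genes that include the 436 hosts. In bulk RNA, fewer cells of a type and less RNA per cell cannot be told apart. In Ly6Chi against cMoP 192 hosts were higher and 40 lower, where 32.3% of all genes were higher and 23.3% lower. Fewer hosts were called without either Ly6Chi replicate. The median log2 change was 0.64 in hosts and 0.19 in all genes. Without Ly6Chi replicate 1 it was 0.58 and 0.16, and without Ly6Chi replicate 2 it was 0.66 and 0.22. Without cMoP replicate 1 it was 0.92 and 0.32, and without cMoP replicate 2 it was 0.35 and 0.06. Hosts had a median of 15.55 TPM in cMoP replicate 2, against 23.01 TPM in the other genes with measured introns. With the genes' median set equal in each library 163 hosts were higher and 77 lower, where 3354 of all 13126 genes were higher and 4462 lower. The median log2 change of all genes was then −0.14 in place of 0.19. Lilrb4a stood at 341 and 374 TPM in Ly6Chi, against 7.17 and 3.54 TPM in cMoP (log2 5.88 ± 0.27, limma, adjusted p = 0.000138). Nr4a1, the nuclear receptor on which Ly6Clo monocytes depend, was at 97.3 and 193 TPM in Ly6Chi, against 7.03 and 1.17 TPM in cMoP (log2 5.05 ± 0.68, adjusted p = 0.00248). Its intron had a ratio of 0.312 and 0.155 in Ly6Chi, against 0.274 and 0.125 in cMoP. Clec2i, Dusp22 and Nfkbiz were the next largest rises.

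The largest falls in Ly6Chi against cMoP were those of Usp11, Dusp2, Pfas, Tbrg4 and St6galnac4. Pfas, an enzyme of purine synthesis, was at 9.22 and 8.12 TPM in Ly6Chi, against 32.9 and 29.3 TPM in cMoP (log2 −1.73 ± 0.17, limma, adjusted p = 0.000944). In Ly6Clo against Ly6Chi 18 hosts were higher and 13 lower, where 5.9% of all genes were higher and 7.12% lower. Their sum of 31 was 4 without Ly6Chi replicate 1, 7 without Ly6Chi replicate 2, 9 without either knockout library, 126 without cMoP replicate 1 and 124 without cMoP replicate 2. Foxm1, a transcription factor of dividing cells, was at 3.87 TPM in Ly6Clo, against 85.7 and 77.4 TPM in Ly6Chi (log2 −4.08 ± 0.38, adjusted p = 0.00219), and its intron had a ratio of 0.208 in Ly6Clo, against 0.265 and 0.292 in Ly6Chi. Prim1, the small subunit of DNA primase, was at 5.68 TPM in Ly6Clo, against 35.2 and 28.8 TPM in Ly6Chi (log2 −2.30 ± 0.19, adjusted p = 0.0015). H2-Q7, a class I histocompatibility gene with close copies that may share its reads, was at 232 TPM in Ly6Clo, against 10.8 and 26.6 TPM in Ly6Chi (log2 3.69 ± 0.73, adjusted p = 0.0273). The H2-Q7 call was lost without the filter on low values, without Ly6Chi replicate 1 (adjusted p = 0.110, limma) and without either knockout library. Dusp2, Pot1b, Arhgap39 and B4galnt1 were the next largest rises, and Tbc1d2, Inf2 and Kifc5b the next largest falls. Of these 7, Arhgap39 and B4galnt1 kept their call under every alternative run, as did Foxm1 and Prim1, and the other 5 lost it without Ly6Chi replicate 1.

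In cMoP against MDP 3 hosts were higher and 4 lower, where 1.35% of all genes were higher and 2.52% lower. The 3 were Neu1, the lysosomal sialidase, Rgs14 and B4galnt1. The 4 were Helz2, Ano8, Fgd2 and Hes6. With equal medians 9 hosts were higher and 3 lower, where 408 of all 13126 genes were higher and 295 lower. The median log2 change was −0.51 in hosts and −0.28 in all genes. Without cMoP replicate 1 it was −0.78 and −0.40, and without cMoP replicate 2 it was −0.25 and −0.19. With those groups alone in the fit, or without any 1 of the Ly6Chi or knockout libraries, 0 were higher and 0 lower, so that all 7 of these calls were lost. None of the 436 hosts passed in knockout cells against Ly6Chi controls, where 0% of all genes were higher and 0.00762% lower. In limma 32 of the 436 hosts had an unadjusted p under 0.05, as did 1910 of all 13126 genes. Hosts had a median of 24.5 and 26.6 TPM in knockout cells, against 30.5 and 28.6 TPM in Ly6Chi controls. The other genes with measured introns had 24.9 and 27.7 TPM in knockout cells, against 31.4 and 29.3 TPM in Ly6Chi controls.

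The size of the set depends on the floor and on 1 library. The introns just inside the floor had a lowest ratio of 0.1 in Zmym3, 0.1003 in Osm and 0.1004 in Tubgcp3, followed by Sra1 and Nfkbid (0.1005 each). Just outside were introns of Arhgap27 (0.099956), Spg7 (0.0998), Hdac10, Mcl1 and Lrrfip1 (0.0996 each). With the floor at 0.05 the set held 1814 introns, and at 0.2 it held 123. Without cMoP replicate 2 it held 1314 introns, and without any 1 of the other 7 libraries between 609 and 641. With at least 5 reads over each boundary in every library 358 introns remained.

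**Figure D5:**
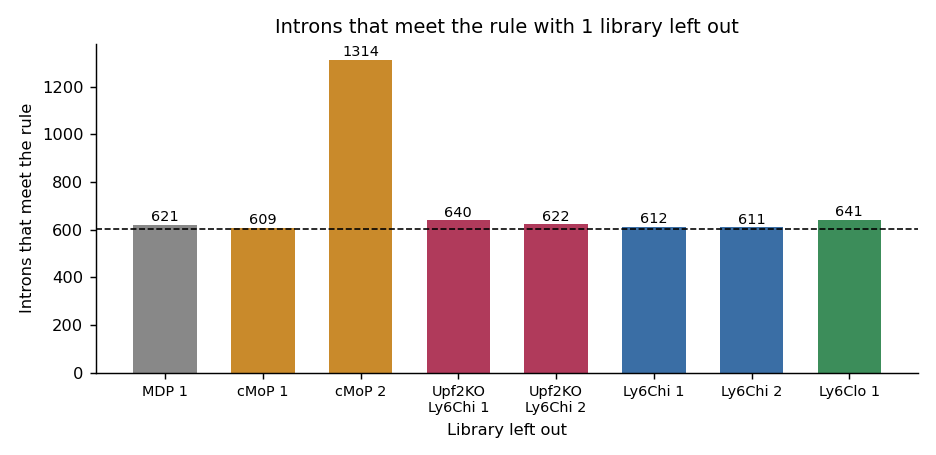
Number of introns that meet the rule when 1 library is left out, named on the horizontal axis. The dashed line is the 603 of all 8 libraries. Leaving out cMoP replicate 2 gives 1314, and each other library between 609 and 641.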

How the data were processed

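The authors' intron tables hold, per library, read counts at intron boundaries and splice junctions, a trimmed depth (signal) and a retention ratio given as a fraction. The sources used here do not name the program. FastQC, Trimmomatic, STAR 2.5.2a, RSEM and build mm10 are listed per the submitters' processing notes. The deposited expression table is named FPKM, but its columns sum to the same total as TPM does, so it was treated as TPM. Counts were tested with edgeR 4.0.16 on left plus right boundary reads (U) against the larger spliced count (S), over introns with 20 or more reads (U + S) in each library and a U total of 20 or more, and TPM with limma 3.58.1 on log2(TPM + 1) over genes that reached 1 TPM in 2 or more libraries. All 8 libraries entered each fit (3 residual degrees of freedom), and Benjamini-Hochberg adjustment ran over all features. The single MDP and Ly6Clo libraries borrow the spread of the other groups. Scripts were tested on simulated data. The introns and gene lists were chosen with earlier results of these data known. Named introns had the 10 highest mean ratios, the 5 smallest or 5 largest SD, or lay nearest the floor; named genes held the most introns, led a list or changed most among those called. Per library the 603 introns had a median of 55 to 92 spliced and 23 to 82 boundary reads, which limits single ratios. Reads carry no molecular identifiers. Alternatives changed scaling, filters, tools, groups fitted and libraries. An item withheld for evaluation is not reported here.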

Additional observations from a re-analysis of the deposited data

How the results depend on the processing

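Replicate numbers did not pair the libraries (correlations of same-numbered deviations were 0.063, −0.136 and −0.130 in expression and −0.014, −0.061 and −0.043 in retention). The fit with a replicate block called 0 introns of the set in Ly6Chi against cMoP and in knockout cells against Ly6Chi controls, and 206 and 0 host genes. The number of introns of the set called by edgeR was 0 in each comparison. With TMM scaling it was 1 in cMoP against MDP, 3 in Ly6Chi against cMoP, 1 in Ly6Clo against Ly6Chi and 1 in knockout cells against Ly6Chi controls. Without the filter it was 1, 4 and 2 in the first, second and last of these. Of all 104933 introns then tested, 4 were higher and 34 lower, 277 and 60, and 57 and 66 in that order. In Ly6Chi against cMoP, DESeq2 called 2 and exact spliced reads gave 1. With only the groups compared fitted it was 18 in Ly6Clo against Ly6Chi and 7 in knockout cells. Leaving out 1 library each gave 0 to 118, 0 to 187, 0 to 11 and 0 to 11 in the same order. Host genes called in cMoP against MDP numbered 7, and 4 with a pseudocount of 0.1, 12 with median centring, 0 with those groups alone and 0 to 266 with 1 library left out. In Ly6Chi against cMoP 232 became 144 without the filter and 90 to 343 with 1 library left out. In Ly6Clo against Ly6Chi 31 became 67 with median centring, 122 with those groups alone and 4 to 126 with 1 library left out. In the knockout 0 were called under each setting. The set itself held 1814 introns at a floor of 0.05, 123 at 0.2, 52 without any warning, 358 with 5 reads at each boundary, and 609 to 1314 with 1 library left out. The Rbm3 change in cMoP against MDP reversed to −0.39 with limma on intron depth. Apart from leaving out libraries or a stricter rule, the cause of these differences was not tested. Of 280 named host gene values 219 kept their call and 61 lost it, with no change of direction. A single ratio rests on a median of 23 to 82 boundary reads an intron in a library, and the share of the low counts that comes from depth was not tested.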
